A study of Mus musculus with 14 samples.

Results

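Immediate early genes are transcribed within minutes of a stimulus, without new protein synthesis, and 10 of them were followed in cardiac fibroblasts before and after myocardial infarction (MI): Fos, Fosb, Jun, Junb, Egr1, Atf3, Ier2, Nr4a1, Dusp1 and Zfp36. They were taken by gene symbol, with earlier results of these data known, and each had a row among the 19494 genes measured. Cells came from tamoxifen-treated C57BL/6 mice of genotype TCF21-MerCreMer;R26GFP, in which a tamoxifen-regulated Cre expressed from the Tcf21 locus turns on a green fluorescent reporter in resident fibroblasts. The methods name an FVB.Cg reporter line for breeding these mice, and any mixture of strains is not described. Hearts were digested with collagenase D and Dispase II, and reporter-positive cells were sorted and labelled for Clariom S Mouse arrays without culture. Fibroblasts of the uninjured left ventricle (n = 3) were compared with those of the infarct area at 3 days (n = 3), 7 days (n = 3), 2 weeks (n = 2) and 4 weeks (n = 3) after permanent ligation of the left coronary artery. The reporter marks ancestry and not the present state of a cell, no sham-operated group was analysed here, and the sources do not say whether an array holds 1 mouse or a pool.

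Immediate early genes are switched on by growth factors, stretch and stress through MAP kinase pathways, which act on serum response factor with its ETS partners at CArG boxes, and on CREB and its relatives at cAMP response elements (CRE). FOS and JUN proteins pair to form AP-1, while EGR1 and NR4A1 are transcription factors of the zinc finger and nuclear receptor families. DUSP1, a phosphatase that inactivates MAP kinases, and ZFP36, which speeds the decay of AU-rich mRNAs, act back on the response. These genes are also known to rise while a solid tissue is being digested into single cells. All groups were digested, so RNA present in the heart and RNA made during isolation cannot be told apart here.

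The promoters of the members were searched for known motifs, none of which was found in all of those read. Windows from 250 bases before to 50 bases after the gene start (RefSeq, GRCm38.p6) were read for 8 members, and Egr1 and Ier2 are named only. The CRE core TGACG, searched on both strands, was in 6 of the 8 windows (Fos, Fosb, Junb, Atf3, Nr4a1 and Dusp1) and in 20.8% of all 32817 windows. The full site TGACGTCA, which holds the core on each strand, was in the Dusp1 window and in 1.79% of all windows. A CArG box was in the Zfp36 window and in 1.63% of all windows. Sites outside the windows were not searched, so a member without a match may hold one elsewhere. The stretches that carry these letters are shown because the letters are those of the elements named above. Each stretch has 12 bases on either side of its marked letters, 5′ to 3′ along the gene. CRE cores, the full CRE and the CArG box are in capitals.
Fos (chr12:85473749-85473840, plus strand): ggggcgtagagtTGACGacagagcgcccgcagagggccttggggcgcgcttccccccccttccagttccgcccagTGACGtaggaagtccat
Fosb (chr7:19310089-19310117, minus strand): tggagttgcgggTGACGcaagcgcggggg
Junb (chr8:84978838-84978866, minus strand): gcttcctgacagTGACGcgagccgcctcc
Atf3 (chr1:191183324-191183352, minus strand): ttaatagcattaCGTCAgcctgggattgg
Nr4a1 (chr15:101266601-101266822, plus strand): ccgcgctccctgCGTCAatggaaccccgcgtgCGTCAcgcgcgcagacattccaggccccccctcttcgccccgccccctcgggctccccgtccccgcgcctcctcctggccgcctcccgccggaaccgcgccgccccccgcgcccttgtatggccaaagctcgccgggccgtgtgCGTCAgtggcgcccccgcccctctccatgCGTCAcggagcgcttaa
Dusp1 (chr17:26508596-26508675, minus strand): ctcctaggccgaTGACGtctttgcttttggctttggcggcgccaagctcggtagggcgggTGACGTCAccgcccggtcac
Zfp36 (chr7:28379265-28379298, minus strand): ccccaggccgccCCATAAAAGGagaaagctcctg
Counted with the first base of the gene as 0, the Fos cores began at -129 and -66, that of Fosb at -60, that of Junb at -106 and that of Atf3 at -7. Nr4a1 held 4 cores, which began at -233, -213, -69 and -40, and the full site of Dusp1 ran from -143 to -136. The Zfp36 CArG box ran from -58 to -49. Among other motifs, the AP-1 site TGANTCA was in 0 of the 8 windows and 7.81% of all, and the EGR site GCGNGGGCG was in those of Fosb, Nr4a1 and Zfp36 and 5.56% of all, both searched on both strands. The ETS site CCGGAAG was in the Zfp36 window and 8.86% of all on either strand, and TATAAA, searched on the sense strand, in those of Fos and Junb and 8.32% of all. TATAAA ran from -33 to -28 in Fos, but from 0 to 5 in Junb, on the first bases of the gene. A match of letters is a description and not evidence of binding.

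Signals are on the log2 scale of the deposited table, where 1 unit is a 2-fold difference. They serve to compare 1 gene between arrays and not different genes. Groups were compared with limma in 1 fit of all 14 arrays, p values were adjusted by the Benjamini-Hochberg method over the 19494 genes, and a gene was called at an adjusted p under 0.05. The labels call the arrays of a group biological replicates but name no animal, so p values measure the spread between these arrays. The Y-linked genes Uty and Kdm5d split the arrays, for which the labels give no sex: Uty was 3.11 to 4.31 in 7-day array 2, both 2-week arrays and 4-week array 1, and 7.10 to 9.67 in the other 10. Kdm5d was 3.38 to 4.21 in the former and 5.49 to 7.67 in the latter, where 7-day array 1 and 4-week arrays 2 and 3 were lowest. All members lay well above 5.89, a background level taken from 1410 odorant and pheromone receptor genes (their 95th percentile).

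Immediate early gene transcripts were lowest in fibroblasts of the 3-day infarct, and 9 of the 10 members were called lower there than in uninjured fibroblasts. Atf3 fell 6.64-fold, Ier2 6.83-fold and Fos 4.70-fold, and the smallest called change was that of Fosb, at 2.03-fold. At 7 days 4 members were called lower, and at 2 and 4 weeks 0. Over all genes the share called lower shrank too. It was 5.81% in the 3-day comparison, then 3.49%, 1.18% and 0.913% in the later ones, taken in order. All 10 members had their lowest group mean at 3 days and the next lowest at 7 days, and in 6 of them (Jun, Junb, Egr1, Atf3, Ier2 and Zfp36) the 2-week, 4-week and uninjured means followed in that order. An F test over the groups called 9 of 10 members, all but Nr4a1 (adjusted p = 0.389), beside 15.4% of all genes.

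**Figure D1:**
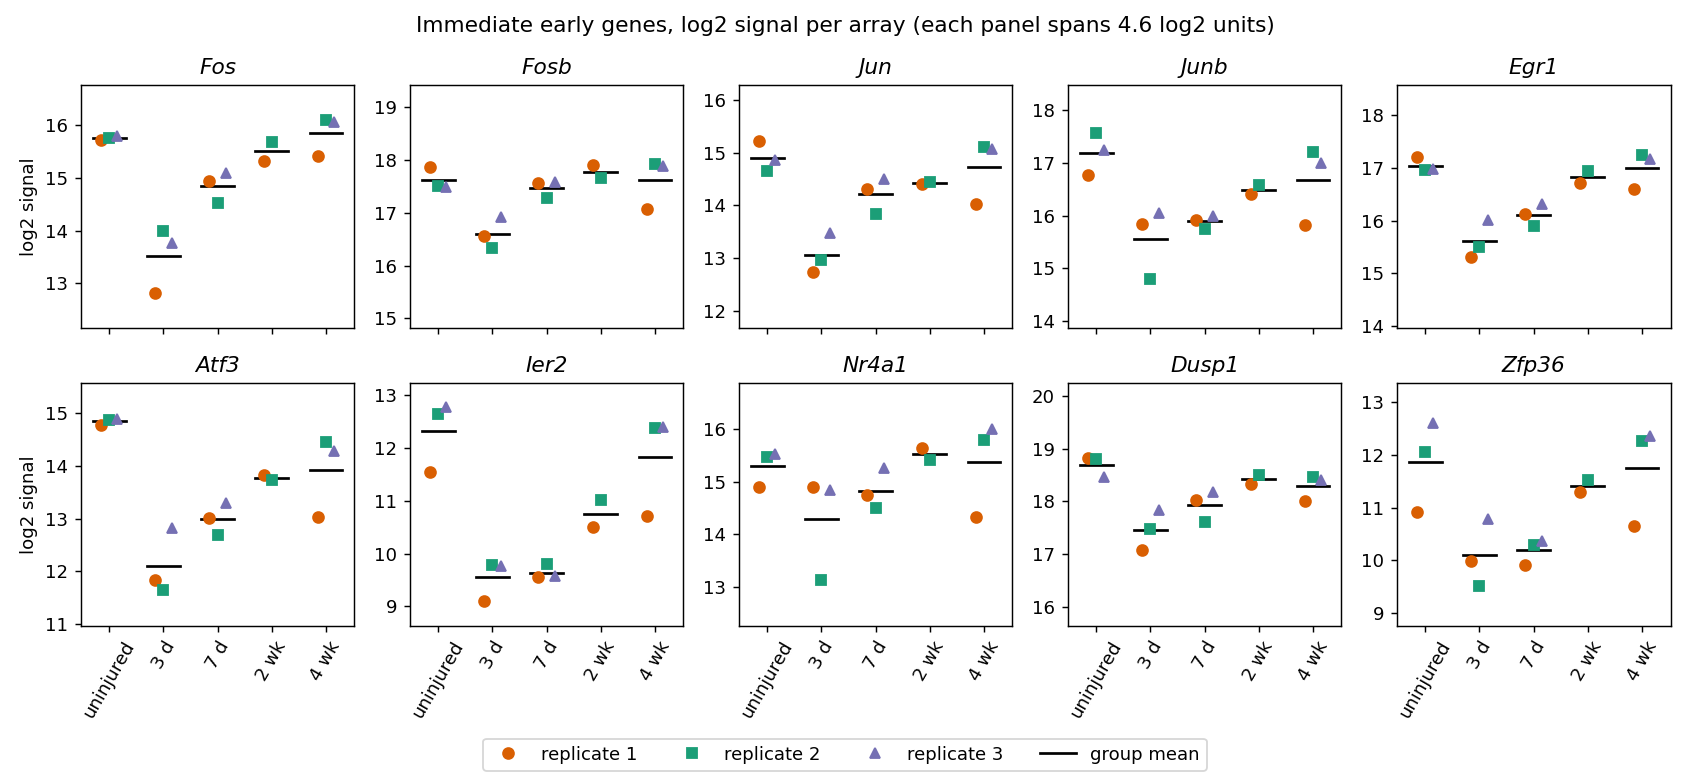
Log2 signal of each of the 10 genes (y axis) in each array of the 5 groups (x axis), with points shaped by replicate number and a bar at each group mean; every panel spans the same number of log2 units. The 3-day arrays lie below all uninjured arrays in every panel, and replicate 1 at 4 weeks lies below the other 4-week arrays in every panel.

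Fos and Fosb encode AP-1 subunits that need a JUN partner to bind DNA. Fos measured 15.72, 15.76 and 15.79 in the 3 uninjured arrays, 12.82, 14.001 and 13.76 at 3 days, and 14.93, 14.52 and 15.08 at 7 days. It measured 15.32 and 15.68 at 2 weeks, and 15.41, 16.10 and 16.05 at 4 weeks. All 3-day, 7-day and 2-week arrays were below the lowest uninjured array, and the 4-week arrays lay on both sides of the uninjured range. The log2 fold change at 3 days was -2.23 (SE 0.295, adjusted p = 0.00018). At 7 days the fold change was -0.91 (SE 0.295, adjusted p = 0.0841), a call that was gained with the replicate number as a block (adjusted p = 0.0289). From 3 to 7 days Fos rose 2.49-fold (log2 1.32, SE 0.295, adjusted p = 0.0153), and the interval of that rise was 0.68 to 1.96. The rise was no longer called without 3-day array 1 (log2 0.97, adjusted p = 0.0598) or 7-day array 3 (log2 1.20, adjusted p = 0.0777).

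Fosb measured 17.88, 17.51 and 17.49 in uninjured fibroblasts and 16.56, 16.33 and 16.92 at 3 days. By 7 days its arrays, at 17.57, 17.29 and 17.58, overlapped the uninjured ones. The 2-week arrays measured 17.91 and 17.66 and the 4-week arrays 17.07, 17.92 and 17.89. Fosb thus stood low in the 3-day arrays and in 4-week array 1, the 4 lowest of the 14. It fell by 1.02 on the log2 scale at 3 days (SE 0.253, adjusted p = 0.0152), and its 7-day value was -0.15 (SE 0.253, adjusted p = 0.899). The 3-day call was lost without uninjured array 1 (adjusted p = 0.0503), 3-day array 1 (adjusted p = 0.05002) or 3-day array 2 (adjusted p = 0.0763). The difference between 7 and 3 days was 0.87 (SE 0.253, adjusted p = 0.0578) and passed the threshold with the replicate block (adjusted p = 0.0317).

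Jun and Junb encode the partners, of which c-JUN is the stronger activator. Jun measured 15.23, 14.64 and 14.85 in uninjured fibroblasts, 12.74, 12.96 and 13.48 at 3 days, and 14.31, 13.83 and 14.51 at 7 days. Its 2-week arrays measured 14.40 and 14.45 and its 4-week arrays 14.02, 15.11 and 15.08. No 3-day, 7-day or 2-week array reached the lowest uninjured one, and 4-week arrays 2 and 3 were back in the uninjured range. Jun fell 3.60-fold at 3 days (log2 -1.85, SE 0.309, adjusted p = 0.00109), and at 7 days the difference was -0.69 (SE 0.309, adjusted p = 0.256). It rose by 1.15 from 3 to 7 days (SE 0.309, adjusted p = 0.0400). That call was lost on leaving out any of 8 arrays, uninjured arrays 2 and 3, 3-day arrays 1 and 2, 7-day arrays 1 and 3 or either 2-week array (adjusted p 0.0507 to 0.167).

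Junb was called lower at both 3 and 7 days, and its course was not tested against that of Jun. It measured 16.76, 17.56 and 17.25 in uninjured fibroblasts, 15.84, 14.79 and 16.05 at 3 days, and 15.92, 15.75 and 15.99 at 7 days. At 2 weeks it measured 16.40 and 16.57, still below every uninjured array, and at 4 weeks 15.82, 17.21 and 16.99. Junb fell 3.10-fold at 3 days (log2 -1.63, SE 0.376, adjusted p = 0.00996) and 2.47-fold at 7 days (log2 -1.30, SE 0.376, adjusted p = 0.0493). The 3-day call was lost without uninjured array 2 (adjusted p = 0.0532) or 3-day array 2 (adjusted p = 0.0533). The 7-day call lay at the threshold, and leaving out any of 9 arrays (uninjured 2 or 3, 3-day 1, any 7-day array, either 2-week array or 4-week 3) moved it to between 0.0583 and 0.198. The 2-week difference was -0.70 (SE 0.420, adjusted p = 0.601).

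Of the other AP-1 and small bZIP genes, 2 of 11 fell at 3 days and 0 rose, Mafk by 1.63 and Jdp2 by 1.07 on the log2 scale, and 0 of 11 were called at 7 days. Their medians were -0.31 and -0.44, beside -0.02 and 0.02 over all genes and -1.70 and -0.92 over the 10 members. For the counts of this list and those that follow, 5.81% of all genes were called lower and 6.74% higher at 3 days. At 7 days the shares were 3.49% and 4.62%. The FOS and JUN relatives outside the member list had no call at 3 days: Fosl1 differed by 1.03 (adjusted p = 0.225), Fosl2 by -0.13 (adjusted p = 0.956) and Jund by -1.67 (adjusted p = 0.105). Fosl1, which encodes the AP-1 subunit FRA-1, measured 9.12, 6.52 and 8.62 at 3 days against 7.39, 7.11 and 6.68 in uninjured fibroblasts, so 1 of its 3 infarct arrays lay below the uninjured ones. Jund spanned 11.14 to 13.61 in uninjured fibroblasts, with array 1 the lowest.

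Atf3, a stress-induced bZIP repressor that binds CRE and AP-1 sites, had the tightest uninjured values of the members after Fos. It measured 14.77, 14.87 and 14.88 in uninjured fibroblasts, 11.84, 11.66 and 12.83 at 3 days, and 13.01, 12.70 and 13.29 at 7 days. The 2-week arrays measured 13.82 and 13.72 and the 4-week arrays 13.04, 14.46 and 14.28, so that no infarct array at any time reached the lowest uninjured array. Atf3 fell by 2.73 at 3 days (SE 0.362, adjusted p = 0.00018) and by 1.84 at 7 days (SE 0.362, adjusted p = 0.00503). The later differences were -1.07 at 2 weeks (SE 0.404, adjusted p = 0.264) and -0.91 at 4 weeks (SE 0.362, adjusted p = 0.396), neither of them called. The 4-week value was -0.47 without 4-week array 1 (adjusted p = 0.771). From 3 to 7 days Atf3 differed by 0.89 (SE 0.362, adjusted p = 0.1995).

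Egr1, a zinc finger factor whose targets include growth factor and matrix genes, measured 17.20, 16.96 and 16.97 in uninjured fibroblasts, 15.31, 15.50 and 16.01 at 3 days, and 16.13, 15.90 and 16.31 at 7 days. At 2 weeks it measured 16.72 and 16.95 and at 4 weeks 16.59, 17.24 and 17.17. The 3-day and 7-day arrays were all below the uninjured ones, and the 2-week arrays lay just under them. Egr1 had the smallest within-group SD of the members, 0.272. It fell 2.71-fold at 3 days (log2 -1.44, SE 0.236, adjusted p = 0.000948) and 1.91-fold at 7 days (log2 -0.93, SE 0.236, adjusted p = 0.0256). The 7-day call was lost without any 1 of the uninjured arrays or without 7-day array 1 or 2 (adjusted p 0.0552 to 0.109).

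Nr4a1, an orphan nuclear receptor that needs no ligand, was the member that was not called at 3 days. It measured 14.90, 15.46 and 15.53 in uninjured fibroblasts, and 14.89, 13.13 and 14.84 at 3 days. Its 7-day arrays measured 14.74, 14.49 and 15.25, its 2-week arrays 15.64 and 15.41, and its 4-week arrays 14.34, 15.79 and 16.00. The 3-day arrays were below the uninjured ones, but 2 of them by less than 0.1, and array 2 stood far below the others. The log2 difference was -1.01 (SE 0.479, interval -2.04 to 0.02, adjusted p = 0.230), and at 7 days -0.47 (SE 0.479, adjusted p = 0.773). The 3-day value was -0.43 without 3-day array 2 (adjusted p = 0.714), and it passed the threshold with estimated array weights (-1.28, adjusted p = 0.0397) and without the arrays numbered 1 (-1.51, adjusted p = 0.0458).

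Among 12 relatives and Kruppel-like factors, 3 fell at 3 days and 0 rose. These were Klf4 by 1.68, Klf2 by 1.24 and Klf9 by 1.22 on the log2 scale. Klf9 was also called at 7 days, with a fall by 1.70. Egr2, a close relative of Egr1, differed by -0.52 at 3 days (adjusted p = 0.239) and Egr3 by -0.13 (adjusted p = 0.883). Nr4a2 and Nr4a3 differed by 0.17 (adjusted p = 0.932) and -0.11 (adjusted p = 0.976) at 3 days. Nr4a3 was low in 3-day array 2, as Nr4a1 was, at 11.16 against 14.54 and 14.17 in arrays 1 and 3. The list medians were -0.13 at 3 days and -0.15 at 7 days.

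Ier2, a short primary response gene, had the largest fall at 3 days and held it at 7 days. It measured 11.54, 12.64 and 12.77 in uninjured fibroblasts, 9.09, 9.78 and 9.77 at 3 days, and 9.55, 9.80 and 9.58 at 7 days. The 2-week arrays, at 10.49 and 11.02, lay between the 7-day and the uninjured arrays. At 4 weeks it measured 10.71, 12.38 and 12.39, so arrays 2 and 3 were within the uninjured range and array 1 below it. Ier2 fell 6.83-fold at 3 days (log2 -2.77, SE 0.429, adjusted p = 0.0006) and 6.41-fold at 7 days (log2 -2.68, SE 0.429, adjusted p = 0.00118). At 2 weeks the difference was -1.56 (SE 0.479, adjusted p = 0.133) and was called with the replicate block (-1.42, adjusted p = 0.0192), without uninjured array 1 (-1.95, adjusted p = 0.0371) or without 4-week array 1 (-1.56, adjusted p = 0.0259). At 4 weeks the difference was -0.49 (SE 0.429, adjusted p = 0.958), and without 4-week array 1 it was 0.065 (adjusted p = 0.987). Ier2 differed by 1.12 between 2 weeks and 7 days (SE 0.479, adjusted p = 0.314), and by 1.26 with the replicate block, where it was called (adjusted p = 0.0383).

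Values of the IER genes outside the member list were mixed. Ier3, an apoptosis regulator, differed by 0.62 at 3 days (adjusted p = 0.575) and Ier5 by -1.58 (adjusted p = 0.119). Ier5l was called lower (adjusted p = 0.0177), with no fold given because all its 3-day arrays were under background. They belong to a list of 36 other primary response genes measured, of which 11 fell and 0 rose at 3 days, and 6 fell and 1 rose at 7 days. The list medians were -0.75 and -0.55. At 3 days Gadd45g fell 6.57-fold, Btg2 5.40-fold, Gadd45b 4.19-fold and Gadd45a by 2.05 on the log2 scale. The GADD45 proteins are stress sensors that slow the cell cycle and BTG2 is an antiproliferative protein. At 7 days Gadd45a fell 7.36-fold. The exception was Ccn2, a matricellular protein, which rose by 2.19 at 7 days and by 2.70 at 4 weeks (adjusted p = 0.00192).

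Dusp1 measured 18.82, 18.81 and 18.46 in uninjured fibroblasts, 17.07, 17.47 and 17.84 at 3 days, and 18.03, 17.60 and 18.18 at 7 days. All 6 of those infarct arrays were below the uninjured ones. At 2 weeks it measured 18.33 and 18.51 and at 4 weeks 18.00, 18.47 and 18.40, with 1 array of each time above the lowest uninjured one. Dusp1 fell 2.35-fold at 3 days (log2 -1.23, SE 0.240, adjusted p = 0.00315). At 7 days the difference was -0.76 (SE 0.240, adjusted p = 0.0767), called with the replicate block (adjusted p = 0.0437).

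Of 15 other MAP kinase phosphatases and feedback inhibitors, 2 fell at 3 days and 4 at 7 days, beside 5.81% and 3.49% of all genes. There were 0 rises at either time, and the medians were -0.13 and -0.26. Spry1 and Spry4, Sprouty inhibitors of receptor tyrosine kinase signalling, fell by 1.91 and 1.06 at 3 days, and Spry1, Spry2, Spry4 and Dusp10 were called lower at 7 days. Dusp6, a phosphatase specific for ERK, measured 12.60, 12.78 and 12.73 in uninjured fibroblasts and 12.42, 12.93 and 12.70 at 3 days. Its groups overlapped, and the difference was -0.02 (adjusted p = 0.989). Dusp4 and Dusp5 differed by 0.88 (adjusted p = 0.160) and -0.46 (adjusted p = 0.540) at 3 days.

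Zfp36, which encodes tristetraprolin, had the widest within-group SD of the members, 0.689. It measured 10.91, 12.06 and 12.61 in uninjured fibroblasts, 9.997, 9.52 and 10.78 at 3 days, and 9.92, 10.30 and 10.37 at 7 days. At 2 weeks it measured 11.29 and 11.51, within the uninjured range, and at 4 weeks 10.66, 12.26 and 12.35. The highest 3-day array lay 0.13 below the lowest uninjured one, so the groups were separate by little. Zfp36 fell 3.39-fold at 3 days (log2 -1.76, SE 0.483, adjusted p = 0.0276), a call lost without uninjured array 2 or 3 or 3-day array 1 or 2 (adjusted p 0.0826 to 0.128) and in an unmoderated fit (adjusted p = 0.0884). At 7 days the difference was -1.66 (SE 0.483, adjusted p = 0.0510), just outside the threshold, and it was called with the replicate block (adjusted p = 0.00451) and without uninjured array 1 (-2.14, adjusted p = 0.0134), 3-day array 3 (adjusted p = 0.0487) or 4-week array 1 (adjusted p = 0.0161). Between 7 days and 2 weeks Zfp36 differed by 1.21 (SE 0.540, adjusted p = 0.341), and by 1.48 with the replicate block (adjusted p = 0.0458).

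The other mRNA decay factors moved in both directions. Of 11 measured, 4 rose and 1 fell at 3 days, with a median of 0.45, and 0 were called at 7 days. Zfp36l1, a close relative of Zfp36, fell 2.15-fold (adjusted p = 0.0192), and Zfp36l2 differed by -0.74 (adjusted p = 0.133). The genes that rose were Hnrnpd (2.77-fold), which encodes AUF1 and binds AU-rich elements, the deadenylase subunit Cnot7 (2.09-fold), the stabilizing factor Elavl1 (1.98-fold) and Khsrp (1.81-fold).

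Taken as a list, 9 of 10 members were called lower at 3 days and 0 higher, beside 5.81% of all genes called lower and 6.74% called higher. In all 10 members every 3-day array was below every uninjured array, beside 12.6% of all genes. At 7 days 4 were called lower (Ier2, Atf3, Junb and Egr1) and 0 higher, beside 3.49% and 4.62% of all genes, and 8 of 10 had every array lower, beside 8.86%. With the replicate block the 7-day count was 7, and with the Y-linked class as a block it was 2, without Junb (adjusted p = 0.124) and Egr1 (adjusted p = 0.0661). Without single arrays the 3-day count ranged from 6 to 9 and the 7-day count from 2 to 5, the latter at 2 without uninjured array 2 or 3 or 7-day array 1 or 2. The comparisons with uninjured fibroblasts share the same 3 uninjured arrays and are not independent. In sorted bulk RNA, fewer cells that express a gene and less RNA per cell cannot be told apart.

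**Figure D2:**
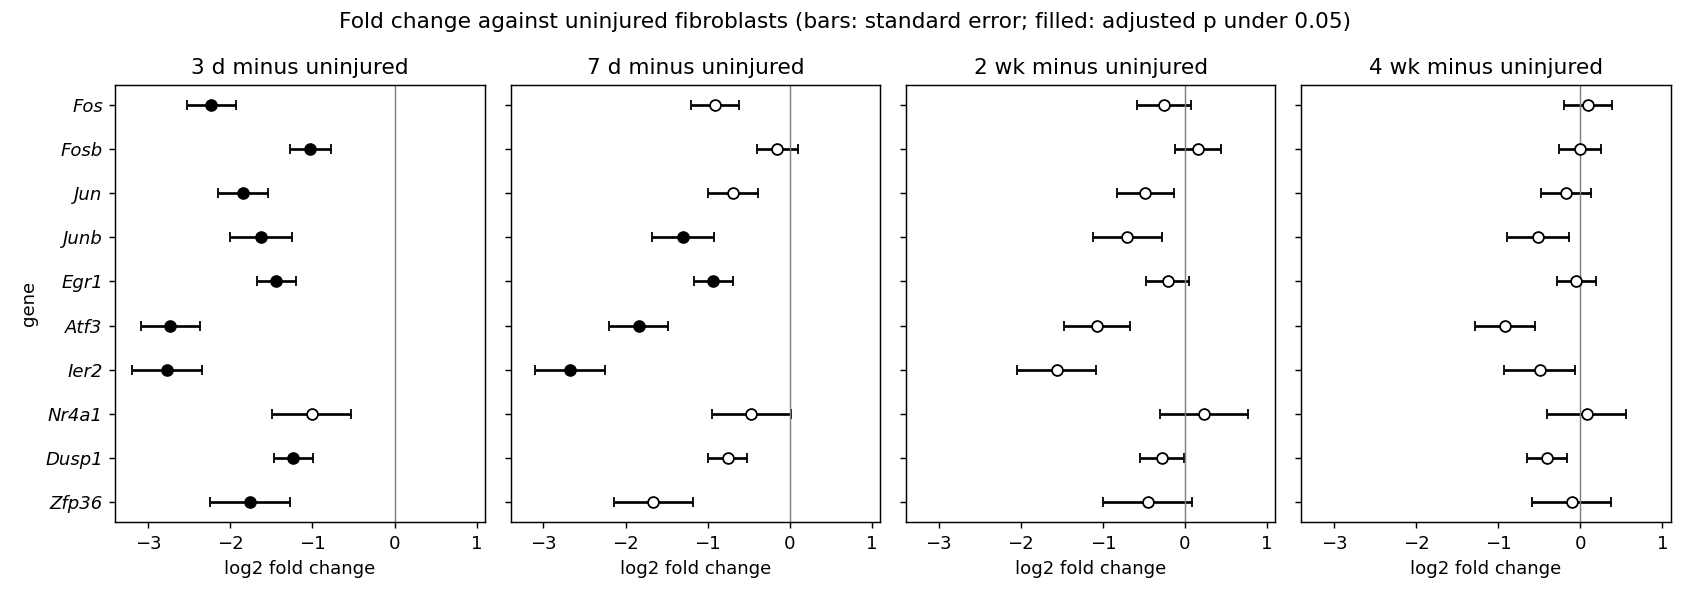
Log2 fold change of each gene against uninjured fibroblasts (x axis) at each of the 4 times after MI, with bars for 1 standard error and filled points at an adjusted p under 0.05. Filled points number 9 at 3 days, 4 at 7 days and 0 at 2 and 4 weeks, and Atf3 and Ier2 lie farthest to the left at the first 3 times.

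Markers of other cells moved between the same groups. At 3 days the summed linear signal of 6 cardiomyocyte markers was 513 to 624 against 1056 to 5029 in uninjured arrays, with 2 of 6 called lower. The summed signal of 5 endothelial markers was 327 to 807 against 1189 to 4625, with 1 of 5 called lower. That of 4 mural cell markers was 385 to 950 against 1242 to 2611, with 0 of 4 called at 3 days and 1, Abcc9, called lower at 7 days. At 7 days 8 of 9 macrophage markers rose, their summed signal was 6833 to 33780 against 409 to 583, and 9 of 9 lay above background against 3 of 9. At 3 days 1 of these 9 was called, with sums of 511 to 1605. Of 5 neutrophil markers 1 or 2 and of 4 lymphocyte markers 0 or 1 lay above background in any group. The 7 fibroblast markers measured, of which Tcf21, Gsn and Lum fell and Col1a1, Col1a2 and Col3a1 rose at 3 days, were above background in all groups. The part of other cells in the members' changes was not tested.

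At 2 weeks 0 of 10 members were called, with 2 at an unadjusted p under 0.05 (Ier2 and Atf3), beside 1.18% of all genes called lower and 1.3% called higher. The members' median was -0.37, against -0.02 over all genes, and 6 members had both arrays below every uninjured array, beside 13.4% of all genes. With the replicate block 1 member, Ier2, was called. Both 2-week arrays were low in Y-linked genes and all uninjured arrays high, and with that class as a block the 2-week values were -0.84 for Ier2 (adjusted p = 0.968), -0.17 for Atf3 (adjusted p = 0.998) and 0.038 for Junb (adjusted p = 0.998). The class varied only within the 7-day and 4-week groups, so its term rested on 7-day array 2 and 4-week array 1. At 4 weeks 0 members were called, with 1 at an unadjusted p under 0.05 (Atf3), beside 0.913% of all genes called lower and 0.995% called higher. The members' values ran from -0.91 to 0.10 with a median of -0.14.

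The steps between successive times were smaller in median than the first fall. From 3 to 7 days 2 members were called higher (Fos and Jun) and 0 lower, beside 3.34% of all genes called higher, and the members' values ran from 0.09 to 1.32 with a median of 0.52. From 7 days to 2 weeks 0 members were called, with 3 at an unadjusted p under 0.05, beside 0.4% of all genes called higher. Their median was 0.68 against -0.04 over all genes, and in 9 of 10 members both 2-week arrays were above every 7-day array, beside 12.6% of all genes. The replicate block called 2 of them, Ier2 and Zfp36. From 2 to 4 weeks 0 were called, with 1 at an unadjusted p under 0.05, beside 0.0103% of all genes called higher, and the median was 0.18. Ier2 was also called from 7 days to 2 weeks with number 1 alone as a block (adjusted p = 0.0248) and without the arrays so numbered (adjusted p = 0.0208).

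The mean of the 10 members placed each array relative to the uninjured mean. The 3-day arrays lay at -1.94, -2.04 and -1.33, the 7-day arrays at -1.14, -1.34 and -0.94, and the 2-week arrays at -0.52 and -0.41. The 4-week arrays lay at -0.99, 0.14 and 0.11, and the uninjured arrays at -0.18, 0.07 and 0.11. By this mean, array 1 at 4 weeks sat among the 7-day arrays, and its companions sat with the uninjured ones. Gene by gene, Fos, Egr1, Ier2 and Zfp36 were higher in array 1 than in every 7-day array. Fosb and Nr4a1 were lower than in every 7-day array, and the other members lay within the 7-day range. Array 1 at 4 weeks differed from its companions in Y-linked class as well as in number, so the class and the number cannot be told apart within that group.

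**Figure D3:**
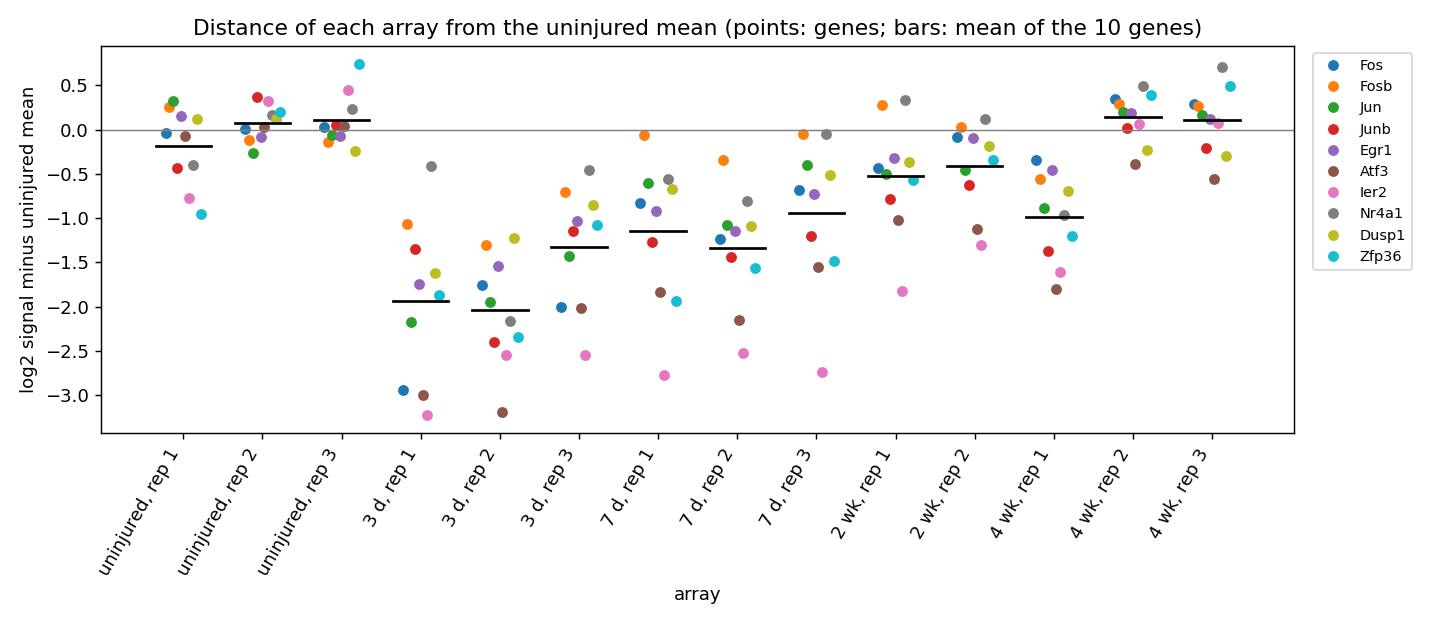
Log2 signal minus the uninjured mean (y axis) for each gene in each of the 14 arrays (x axis), coloured by gene, with a bar at the mean of the 10 genes in each array. The bars lie between -2.04 and -1.33 at 3 days, and at 4 weeks array 1 lies at -0.99 while arrays 2 and 3 lie at 0.14 and 0.11.

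All 10 members were below the lowest uninjured array in 4-week array 1. They differed from the mean of 4-week arrays 2 and 3 by -0.43 (Dusp1) to -1.68 (Ier2). In 4-week arrays 2 and 3 alone, 7 of 10 members were above the uninjured mean, with a median of 0.17, and in array 1 the number was 0, with a median of -0.92. The arrays numbered 1 stand apart in the whole series, with 15.8% of their rows sharing a value with another array of that number, against 2 rows each for numbers 2 and 3. In a fit with a term for number 1, 2 of 10 members were called lower and 0 higher, beside 18.3% and 18% of all genes. These were Ier2 (-0.85, SE 0.176, adjusted p = 0.00261) and Zfp36 (-0.80, SE 0.247, adjusted p = 0.0223), and Fos stood at -0.40 (SE 0.165, adjusted p = 0.0724). The other members' values were negative too, and the range was -0.85 to -0.04 with a median of -0.29. The Zfp36 call was lost without uninjured array 1 (adjusted p = 0.0947) or 4-week array 1 (adjusted p = 0.105), and Fos was called without 7-day array 1 (adjusted p = 0.0352) or 2 (adjusted p = 0.0265). With number 1 in the fit the within-group SD of Ier2 went from 0.602 to 0.347, beside 0.373 and 0.293 for the median of 11960 genes above background in at least 1 group mean. What the number stands for is not given in the sources used here.

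Genes upstream and downstream of the members were followed in the same way. Of 23 upstream kinases and factors measured, 1 rose and 3 fell at 3 days, with a median of -0.14, beside 6.74% and 5.81% of all genes, and 1 rose and 1 fell at 7 days. Elk3, an ETS partner of serum response factor, rose by 1.21 at 3 days and 2.81-fold at 7 days. The CREB coactivator Crtc2 fell by 0.99, the histone and CREB kinase Rps6ka5 by 0.89, and Mapk7, which encodes ERK5, by 0.60 at 3 days, while Mapk8, which encodes JNK1, fell by 1.09 at 7 days. In the fit with a term for number 1, 12 of these 23 genes were higher in the arrays so numbered and 0 lower, beside 18% and 18.3% of all genes.

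Heat shock genes are also known to respond to digestion. Of 14 measured, 5 fell and 2 rose at 3 days, and 5 fell and 0 rose at 7 days, with medians of -0.18 and -1.04. Hspa1a measured 10.24, 10.90 and 10.98 in uninjured fibroblasts and 8.02, 7.28 and 8.03 at 3 days, without overlap, a 7.61-fold fall (adjusted p = 0.000246). Hspa1a and Hspa1b are near-identical copies whose probes may cross-hybridize. The co-chaperone Dnajb1 fell 4.32-fold and the small heat shock protein Hspb1 3.45-fold. The mitochondrial chaperonins Hspe1 and Hspd1 rose 2.17-fold each.

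Downstream, secreted factors and known targets moved in both directions. Of 12 early response secreted factors, 2 rose and 0 fell at 3 days. Ereg, an EGF receptor ligand, measured 5.65, 5.16 and 5.03 in uninjured fibroblasts, all below background, and 11.73, 9.10 and 9.69 at 3 days. The Ereg groups did not overlap (adjusted p = 0.000188), and no fold is given against signals under background. Ccl2, a monocyte chemokine, rose 3.02-fold. At 7 days 1 rose (Ereg) and 2 fell (Ptgs2 and Ccl7). Of 12 genes known as AP-1 or EGR1 targets, 3 rose and 1 fell at 3 days, with a median of 0.64, and 5 rose and 1 fell at 7 days, with a median of 0.62. Timp1, an inhibitor of matrix metalloproteinases, rose 23.4-fold and the hyaluronan receptor Cd44 21.2-fold at 3 days. Plaur, the urokinase receptor, rose 7.06-fold at 3 days. F3, which encodes tissue factor, fell by 2.74 at 3 days and 8.38-fold at 7 days.

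**Figure D4:**
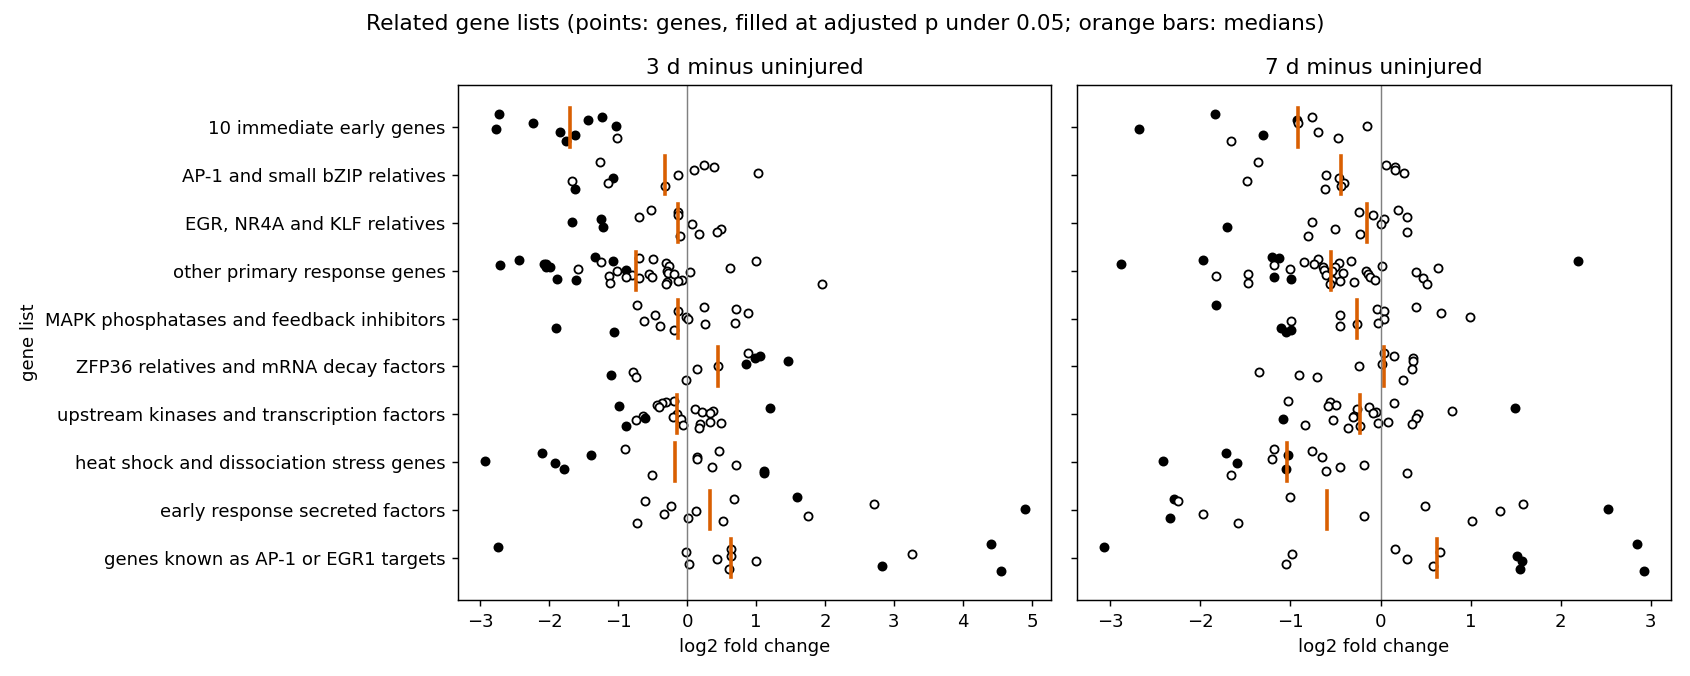
Log2 fold change against uninjured fibroblasts (x axis) at 3 days and at 7 days for each gene of the member list and of the related lists (y axis), filled at an adjusted p under 0.05, with an orange bar at each list's median. The member list has the lowest median at 3 days, -1.70, and the median of the other primary response genes is -0.75.

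Genes with a pattern most like the mean of the 10 members were ranked over the 14 arrays among 10706 genes whose mean over all arrays exceeded background, with 352 more that carry only a clone or model number passed over. For the log2 signal these were Grina (Pearson r = 0.971), Sorbs3 (0.956), Btg2 (0.955), Grasp (0.954), Bbs9 (0.947) and Pdxk (0.943). Their differences at 3 days ran from -1.07 (Sorbs3) to -3.98 (Bbs9). Ranked by deviations from the group means instead, the genes were Col1a1 (0.957), Ccar2 (0.953), Pde4c (0.943), Arhgap15 (0.941), Nup210l (0.938) and Mgst2 (0.938). The lists share no gene. Col1a1, the main collagen chain of scar, rose by 1.85 at 3 days, when the members fell, while its deviations within groups went with theirs. All points share the array, its number and its group, so these coefficients are descriptions.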

How the data were processed

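The 10 members and all gene lists were chosen with earlier results of these data known. The deposited table holds gene-level log2 signals as made by the authors, whose processing notes name Affymetrix Expression Console; the summarization method, its version and the genome build are not given in the sources used here, and the methods name Transcriptome Analysis Console for comparisons. Of 28846 rows 6704 are controls. Of 22142 transcript clusters 19527 carry 1 symbol and 2615 none, and the highest row was kept for 33 genes with several rows, which leaves 19494. No further normalization was applied (array medians 6.34 to 6.46). An array gives no count depth, so the number of arrays limits precision; 10744 to 11306 genes per array exceeded background, and arrays of a group correlated at 0.971 to 0.992.

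The fit used limma 3.58.1 under R 4.3.3 with a mean per group (9 residual and 4.53 prior degrees of freedom), and intervals are 95% intervals of that fit. The fit was tested on simulated data with independent noise in each array and no effect of the replicate number, so that feature was not covered. Deviations from group means correlated above 0.1 in all 26 pairs of arrays with the same replicate number (0.119 to 0.632), but also in all 16 pairs of numbers 2 and 3 (0.124 to 0.432), and in 0 of 36 pairs of number 1 with another. The fit reported has no block, and the value with the replicate number as a block is given where it changes a call. All members were named, with at most 4 rising and 4 falling genes per other list by largest change, family relatives, and the 6 genes most like the members by each measure; a few list genes were added after their values were seen. Alternatives were replicate number, number 1 or Y-linked class as a block, no arrays numbered 1, centring, quantile normalization, a low-value filter, an intensity trend, array weights, 2 groups per fit, an unmoderated fit, mean rows, and each array left out. The labels give no sex. Promoter letters came from RefSeq.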

Additional observations from a re-analysis of the deposited data

Results flagged for a closer look

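The changes against uninjured fibroblasts differed between 3 and 7 days for Fos and Jun by a direct test of 7 days against 3 days. Fos was higher at 7 days by 1.32 and Jun by 1.15 on the log2 scale (limma, adjusted p = 0.0153 and 0.0400). In both genes all 3 arrays at 7 days were above all 3 at 3 days, as also in Fosb, and the share of all genes so separated was not counted. Of the other 8 members 0 passed this test without a block, while Fosb passed with the replicate number as a block (adjusted p = 0.0317), and Fosb and Atf3 with the Y-linked class as a block (adjusted p = 0.0176 and 0.0425). With only the 2 groups in the fit, neither Fos nor Jun was called (limma, adjusted p = 0.0623 and 0.0550). Each of these 2 calls was also lost on leaving out some single arrays. No group holds more than 3 arrays, too few to test whether a single array stands out.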

How the results depend on the processing

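At 3 days 9 or 10 members were called under the alternatives that kept all arrays, except the unmoderated fit (8), and 6 to 9 with single arrays left out. At 7 days, where 4 were called, the count was 7 with the replicate block, the number 1 block, median centring or array weights, 2 with the Y-linked class as a block and 2 to 5 with single arrays left out. At 2 weeks, where 0 were called, it was 1 with the replicate block, the number 1 block, array weights or without the arrays numbered 1, and 0 to 1 with single arrays left out. From 3 to 7 days, where 2 were called, it was 4 with the Y-linked block, 3 with the replicate block, the number 1 block, the low-value filter, the intensity trend or array weights, 1 without the arrays numbered 1 or unmoderated, 0 with only the 2 groups in the fit, and 0 to 3 with single arrays left out. From 7 days to 2 weeks, where 0 were called, it was 2 with the replicate block and 1 with the number 1 block or without those arrays. For number 1, where 2 were called, it was 1 with array weights or unmoderated, and 1 to 3 with single arrays left out. Across the groups 5 to 9 were called with single arrays left out, 5 without 3-day array 1 or 2. At 4 weeks and from 2 to 4 weeks the count was 0 throughout. The causes were not tested, beyond the fewer arrays or groups in a fit. The replicate block changed no other member call that is printed here. Fits with 2 groups give no F test or number 1 term, nor do fits that hold or drop the number give the latter.

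Fosb at 7 days changed sign with the Y-linked block (0.038), as did Junb at 2 weeks (0.038). Ier2 at 4 weeks ran from -0.88 to 0.065 with single arrays left out, and was above 0 without 4-week array 1. The alternatives were tabulated in full for the member values printed, a choice made after seeing them. Over all 80 member values, 62 of 2040 alternative values had the other sign, 0 of them for a value called in the main comparison. Counts over all genes moved too: 2446 called at 3 days became up to 3831 (number 1 block), 1581 at 7 days became 1024 (only the 2 groups) to 2910 (array weights), 484 at 2 weeks became 106 (Y-linked block) to 1646 (array weights), and 372 at 4 weeks became 198 (only the 2 groups) to 1113 (array weights).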
